A study of Mus musculus with 10 samples.

Results

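The mitochondrial genome held 7 of the 21195 m6A peaks listed for mouse hypothalamic neural progenitor cells, 6 on the plus strand of the reference and 1 on the minus strand. They were chosen as every listed interval on the mitochondrial chromosome, whatever its strand, and each was given to the mitochondrial gene with which it shared the most bases. By position the 7 peaks fell on 6 genes, ND1, ND2, ND4, ND5 (with 2 peaks), ND6 and CYTB. The other 21188 peaks were nuclear. The mark N6-methyladenosine (m6A) is a methyl group carried by adenosines of RNA, and a peak is an interval in which RNA fragments bound by an m6A antibody (the immunoprecipitate, IP) were called as enriched over the unselected RNA (the input).

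The cells came from the hypothalamus of E14.5 embryos of Mettl14f/f mice, in which both copies of Mettl14, which encodes a partner of the m6A methyltransferase Mettl3, can be cut out by Cre recombinase. All cultures, control cells included, carried these floxed alleles and were grown with FGF2 and EGF, each at 20 ng/ml. Knockout cells received lenti-EGFP-Cre and control cells lenti-EGFP, and EGFP-positive cells were sorted after 72 hours. Sorting selects cells that took up virus, and the protein left in them was not analysed here. RNA selected with oligo(dT) was broken into fragments of about 80 nucleotides, and the antibody was applied to fragments from 30 µg of total RNA. The labels name 4 IP libraries of the Control genotype, 4 of the Mettl14 Knockout genotype and 1 input library of each. The peak table has 1 input and 1 IP column and names no library and no genotype, so control and knockout were not compared. Which of these libraries entered the columns is not stated. There are no replicate values, no SD and no test between groups. Of 9 progenitor markers (Nes, Sox2 and others), 6 lay under a peak (43.5% of all nuclear protein-coding genes did), which says nothing of their level.

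The mitochondrial genome is a small circle that codes for a few subunits of the respiratory chain and for the ribosomal and transfer RNAs needed to translate them. Both of its strands are transcribed into long RNAs that run through many genes, and these are cut into single RNAs largely at the transfer RNAs that lie between them. Most of its mRNAs carry short poly(A) tails and no introns. ND genes encode membrane subunits of complex I, which passes electrons from NADH to ubiquinone, and CYTB encodes cytochrome b, the core of complex III. COX genes encode core subunits of complex IV, and ATP6 and ATP8 encode parts of the ATP synthase. Of the 37 mitochondrial genes, 28 are coded on the plus strand and 9 on the minus strand of the reference, the latter being ND6 and 8 transfer RNA genes. The Mettl3 and Mettl14 complex is known mainly as a nuclear enzyme.

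Of 13 mitochondrial protein-coding genes, 6 held a peak, a share near that of nuclear protein-coding genes (43.5%). The split by complex below is a description of few genes. In complex I these were 5 of 7, with ND3 and ND4L the members without one, and in complex III 1 of 1. None of the 3 complex IV genes (COX1, COX2 and COX3), neither ATP6 nor ATP8, and neither ribosomal RNA gene was touched by a peak. From the end of the ND2 peak to the start of the ND4 peak, 5813 bases held no peak. No levels were given outside peaks, so whether these RNAs were present and not enriched, or few, cannot be told apart. ATP6, which lies in this stretch, also has a nuclear pseudogene under its name (described below). The sources do not state how reads that match nuclear copies were counted, and their part in the lack of peaks was not tested. Of the 22 transfer RNA genes, none was assigned a peak under the rule of most shared bases, but 3 were overlapped by one. TrnI was covered whole, TrnW to 95.5% and TrnQ, which is coded on the opposite strand, to 4.23%.

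Each peak lay on the strand that codes for its gene. The 6 plus-strand peaks lay on ND1, ND2, ND4, ND5 and CYTB, which the plus strand codes for, and the minus-strand peak lay on ND6. This held for 7 of 7 peaks. Nuclear peaks that overlapped a single RefSeq gene of known strand were on the strand of that gene in 13173 of 13679 cases (96.3%). The sources do not state whether the strand of a peak was read from the RNA or taken from the gene annotation. The edges of the peaks follow gene edges (below), so the agreement does not show which strand the RNA came from. Positions below are those of GRCm38.p6, the mouse build named in the submitters' processing notes, on chromosome M.

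The ND1 peak (chrM:3351-3774, plus strand, 424 bases) covered the last 37.3% of ND1 and all of TrnI, and it ended with the last base of TrnI. The ND2 peak (chrM:3914-5013, plus strand, 1100 bases) began at the first base of ND2, covered the whole gene and ended 3 bases before the end of TrnW. ND4 was covered over its last 52.1% (chrM:10827-11544, plus strand, 718 bases), up to the last base of the gene. ND5, the longest gene of the complex I group, was covered at both ends. Its 5' peak (chrM:11742-12091, plus strand, 350 bases) began at the first base of ND5, and its 3' peak (chrM:12667-13565, plus strand, 899 bases) ended at the last, with 575 bases between them. The ND6 peak (chrM:13552-14070, minus strand, 519 bases) was the ND6 gene itself, from end to end. The CYTB peak (chrM:14645-15288, plus strand, 644 bases) covered the last 56.3% of CYTB, up to its last base.

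**Figure D1:**
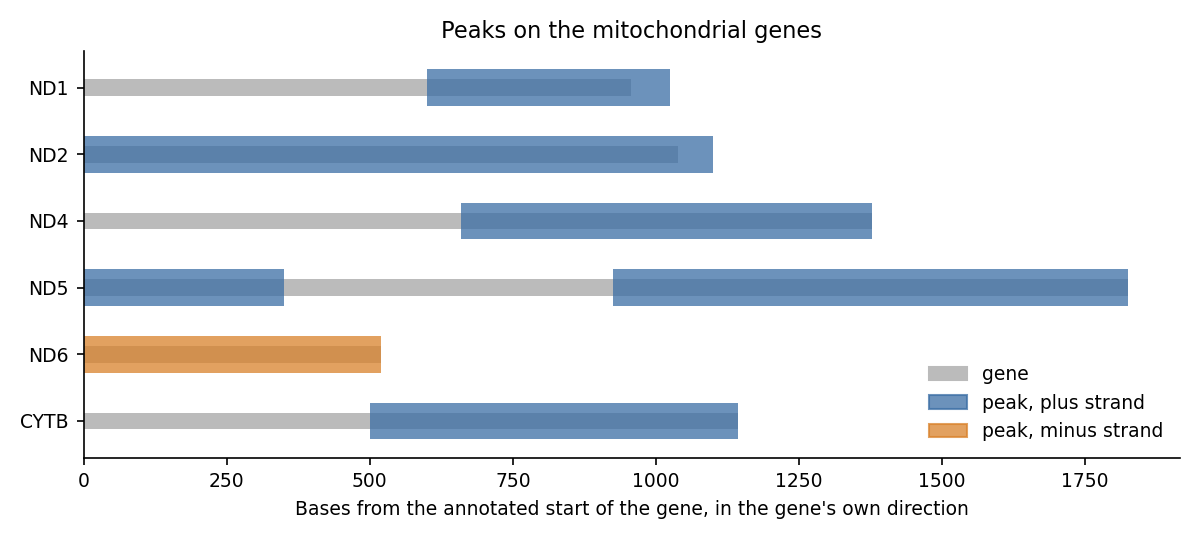
Peaks (thick bars) on the 6 mitochondrial genes that held one (thin grey bars), in bases from the annotated start of each gene in its own direction, with plus-strand peaks blue and the minus-strand peak orange. The ND6 peak fills its gene, ND5 is covered at both ends, and the ND1 and ND2 peaks run past the gene into a transfer RNA gene.

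At least 1 edge of each of the 7 peaks fell on the exact edge of a RefSeq gene. Among nuclear peaks this was so for 1045 of 21188 (4.93%). The table names genes by Ensembl identifiers, and ends of nuclear genes can differ between RefSeq and Ensembl, so these shares are not on an equal footing. All 7 starts, read in the direction of the gene, also lay at a whole multiple of 25 bases from the start of a gene or of a run of overlapping genes on the same strand. The distance was 0 for the ND2, ND5 5' and ND6 peaks, and it was not computed for nuclear peaks. For ND4 the run was ND4L with ND4, whose start is 950 bases before the peak, while ND4 itself starts 660 bases before it. For each peak the number of identifiers in the table was the number of genes in that run, 2 for the ND1, ND2 and ND4 peaks and 1 for the others. The length was a multiple of 25 bases for the 2 peaks whose end lay inside such a run, those of ND2 and ND5 5', and for 11000 of the 21188 nuclear peaks (51.9%).

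Reads differed between the peaks by over 1000-fold, with 5 peaks among the deepest of the whole list and 2 below its median. The ND6 peak had 294599 input reads, the most of all 21195 peaks, and 179623 IP reads. The ND1 peak had 147747 input and 202940 IP reads, and the ND2 peak 106094 and 93489. These were the 1st, 2nd and 4th highest input counts in the list. In ND5 the 5' peak had 100296 input and 117879 IP reads, and the 3' peak 48894 and 135309. The peaks of ND4 and CYTB stood apart, with 85 input and 133 IP reads for ND4 and 176 input and 227 IP reads for CYTB. Nuclear peaks had medians of 466 input and 863 IP reads.

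Per 100 bases, which allows genes of different length to be set side by side, input fell in the order ND6 (56763 reads), ND1 (34846), ND5 5' (28656), ND2 (9645), ND5 3' (5439), CYTB (27.3) and ND4 (11.8). Between the 5th and 6th of these, ND5 3' and CYTB, lay a step of 199-fold. IP reads per 100 bases were highest for ND1 (47863), followed by ND6 (34609) and ND5 5' (33680), then ND5 3' (15051), ND2 (8499), CYTB (35.2) and ND4 (18.5). ND6 and ND5 5' differed by 1.03-fold in IP reads per length and by 1.98-fold in input reads per length. No spread over libraries was available for either order, and in bulk RNA fewer cells with a transcript and fewer copies per cell cannot be told apart. Nuclear peaks of at most 1000 bases had medians of 124 input and 223 IP reads per 100 bases, so ND4 and CYTB were below and the other 5 above these medians on both scales. ND4 and CYTB are coded on the same strand as ND1, ND2 and ND5, and the cause of their low counts was not tested. The number behind a value thus ranged from 85 to 294599 reads, and for ND4 and CYTB counting error alone was wide.

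**Figure D2:**
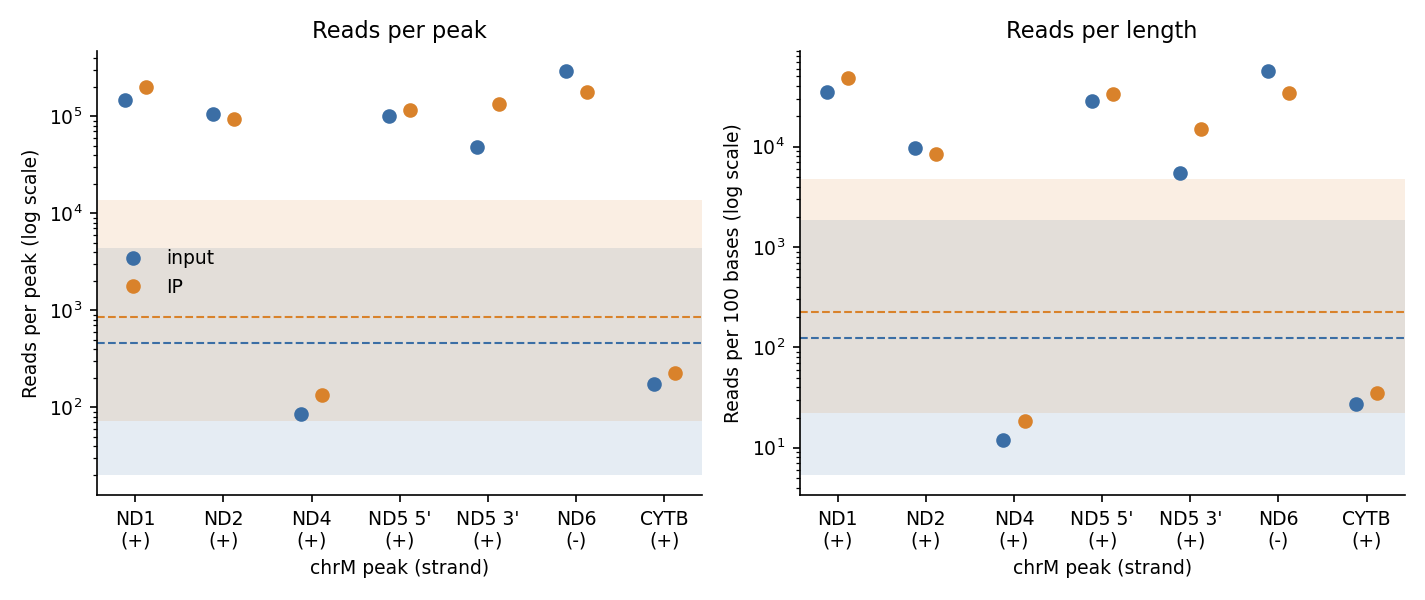
Input (blue) and IP (orange) reads of the 7 mitochondrial peaks, per peak on the left and per 100 bases on the right, both on log axes; dashed lines are medians and bands the 5 to 95 percentiles of nuclear peaks (left, all; right, those of at most 1000 bases). ND4 and CYTB lie under the nuclear medians, and the other 5 peaks lie above the bands.

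The peaks held 2.62% of all input reads in peaks (697891 of 26633390; exact Clopper-Pearson 95% interval 2.61% to 2.63%) and 1.01% of all IP reads in peaks (729600 of 72308582; 1.007% to 1.011%). Their share of the IP was thus lower than their share of the input, by a factor of 2.60. These intervals, like those of the ratios below, treat the deposited values as summed read counts, although the sources do not state how libraries were combined (by sum or by rounded mean), and hold counting error alone, because reads copied by PCR and not marked by molecular identifiers are not independent. Summed over the 7 peaks, the ratio of IP to input reads was 1.05 (95% interval 1.04 to 1.05), against 2.76 (2.76 to 2.76) over nuclear peaks. Neither ratio is corrected for the depth of the libraries, and a value under 1 is no sign of depletion, but both come from the same columns.

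By single peaks the ratio ran from 0.610 to 2.77. The ND5 3' peak had the highest, 2.77 (95% interval 2.74 to 2.80), and it was the only 1 of the 7 above the nuclear median of 2.35. ND4 followed with 1.56 (1.18 to 2.08), then ND1 with 1.37 (1.36 to 1.38) and CYTB with 1.29 (1.05 to 1.58). The ND5 5' peak had 1.18 (1.17 to 1.19). Along this order the intervals of ND4 and ND1, of ND1 and CYTB, and of CYTB and ND5 5' overlapped, so these neighbours were not distinguishable by their counts. ND2 and ND6 had fewer IP than input reads, with ratios of 0.881 (0.873 to 0.889) and 0.610 (0.606 to 0.613), each clear of its neighbour. More IP than input reads were found in 5 of the 7 peaks, against 88.6% of all peaks. The log2 ratio of reads (pseudocount 0.5) lay under the nuclear median in 6 of 7, against 50% of nuclear peaks by construction. As percentiles among nuclear peaks, this log2 ratio stood at 58.8 for ND5 3', 30.0 for ND4, 24.4 for ND1, 21.7 for CYTB, 17.8 for ND5 5', 7.12 for ND2 and 0.307 for ND6.

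The low ratios were also seen against nuclear peaks of high depth. Of the nuclear peaks, 264 had at least 10000 input reads, with a median ratio of 2.54. Among these, the read ratio of the 5 deep mitochondrial peaks stood at percentiles of 54.5 (ND5 3'), 20.1 (ND1), 14.0 (ND5 5'), 6.44 (ND2) and 0.379 (ND6).

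By the fold changes in the authors' deposited table the median mitochondrial peak stood near the middle of the list, with single peaks on both sides of it. The authors' deposited table gave log2 fold changes of IP over input of 4.21 for ND5 3', 3.37 for ND4, 3.17 for ND5 5', 3.14 for ND1, 2.76 for CYTB, 2.63 for ND2 and 2.17 for ND6. Their median in the authors' deposited table was 3.14, and that of nuclear peaks 3.06. Of the 7 values in the authors' deposited table, 3 lay under the nuclear median (50% of nuclear peaks do so by construction), namely CYTB, ND2 and ND6. As percentiles among nuclear peaks, the fold changes of the authors' deposited table stood at 85.8 for ND5 3', 60.4 for ND4, 53.8 for ND5 5', 52.6 for ND1, 39.5 for CYTB, 34.8 for ND2 and 18.0 for ND6. All 7 exceeded a log2 fold change of 1, as did 99.2% of all peaks in the authors' deposited table. Their adjusted p-values in the authors' deposited table ran from 1.52e-52 for ND5 3' to 1.13e-18 for CYTB. The test behind them is not stated in the sources. An adjusted p under 0.05 was thus found for 7 of 7, as for 21187 of the 21195 peaks (100% after rounding), a share no different from the background. CYTB and ND4, the peaks with the fewest reads, had the highest adjusted p of the 7 (1.13e-18 and 3.17e-19 in the authors' deposited table). ND6, with the most input reads, came next at 2.26e-20 in the authors' deposited table.

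**Figure D3:**
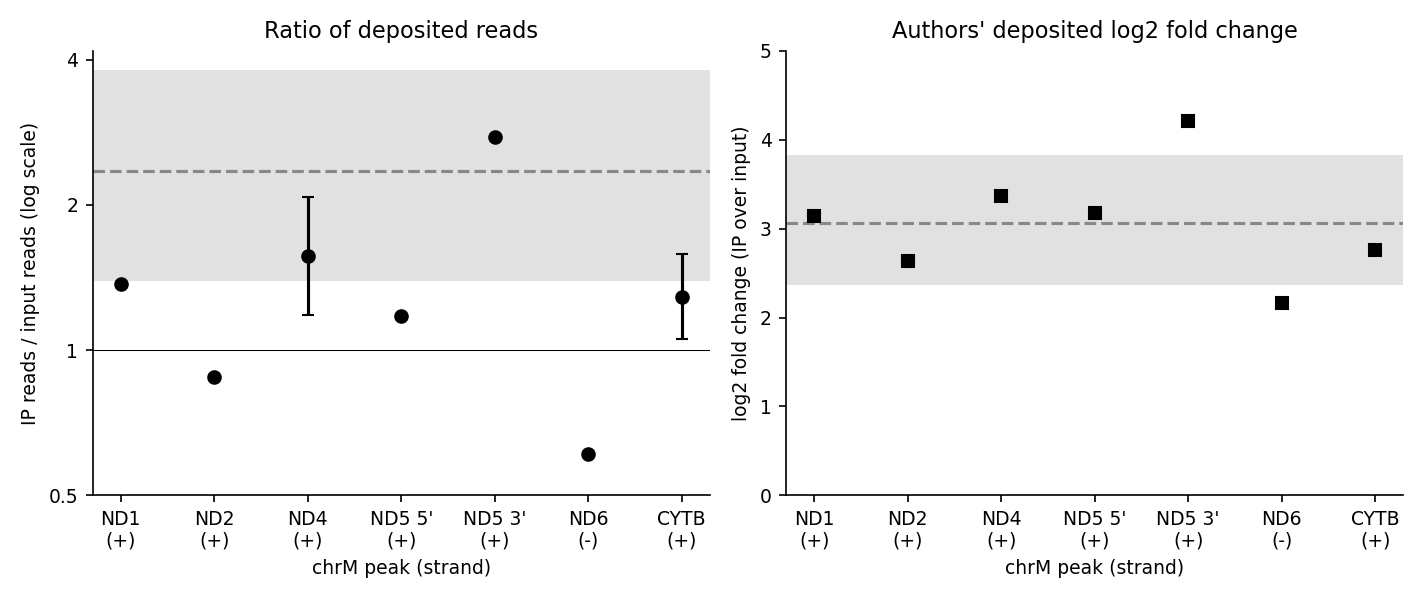
IP to input ratio of the deposited reads with its exact 95% counting interval (left, log axis; where no bar is seen it is smaller than the point) and the authors' deposited log2 fold change (right) for the 7 mitochondrial peaks; dashed lines are the nuclear medians and grey bands the 25 to 75 percentiles of nuclear peaks. ND5 3' is the highest and ND6 the lowest on both sides, while 6 of 7 ratios and 3 of 7 fold changes lie under the nuclear median.

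On both measures ND5 3' was highest and ND2 and ND6 were lowest, but the deposited fold change stood above the read ratio by more than in most nuclear peaks. The excess of the log2 fold change in the authors' deposited table over the log2 read ratio was 2.94 for ND5 5', 2.88 for ND6, 2.81 for ND2, 2.74 for ND5 3', 2.73 for ND4, 2.68 for ND1 and 2.39 for CYTB. Nuclear peaks had a median excess of 1.88 and ran from 0.17 to 2.99. All 7 mitochondrial values were above that median (50% of nuclear peaks by construction), at percentiles from 80.9 (CYTB) to 99.2 (ND5 5'). ND4 and CYTB, with few reads, were above the median as were the deep peaks, and the 264 nuclear peaks of at least 10000 input reads had a median excess of 1.88. The medians of the 20 nuclear chromosomes with at least 100 peaks lay between 1.74 (chromosome 7) and 2.11 (chromosome X), and the mitochondrial median was 2.74. Chromosome Y, with 6 peaks the chromosome nearest in number, had a median excess of 2.70, close to the mitochondrial one. On the read ratio the mitochondrial median (log2 0.37) was below those of the 20 chromosomes (1.07 to 1.37), while on the deposited fold change it was within their range (3.14, against 2.90 to 3.34). The sources do not state which libraries carried the reads of each peak or how they were scaled, and their part in this excess was not tested.

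**Figure D4:**
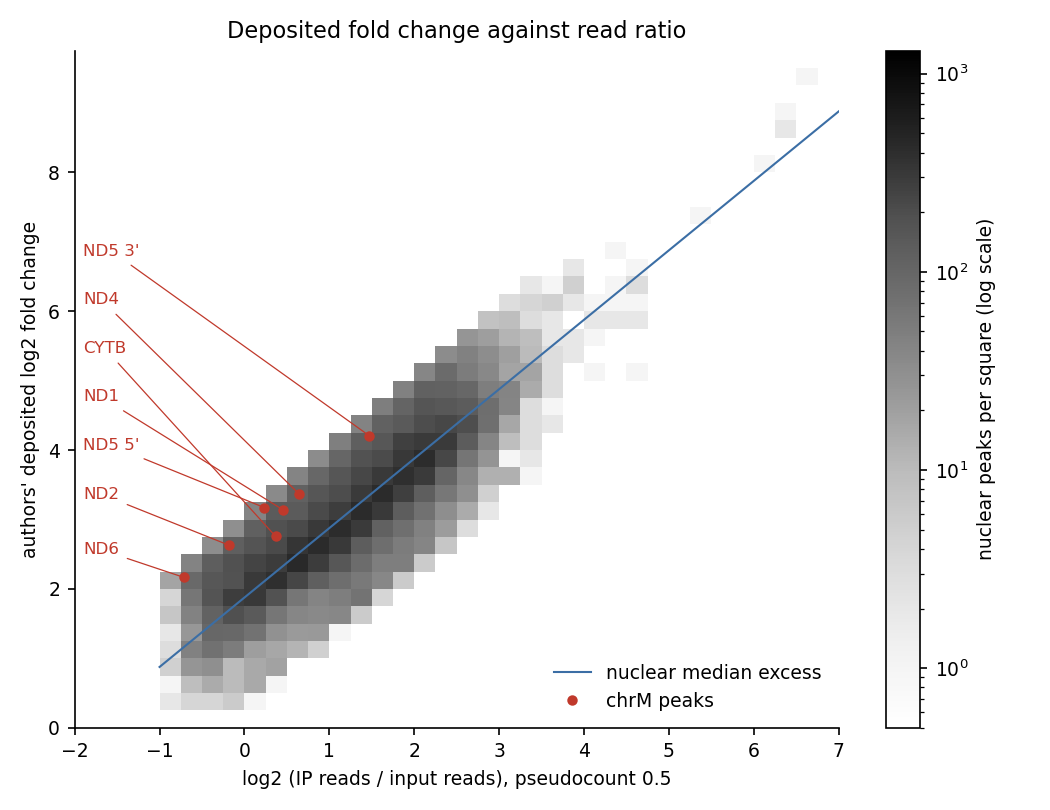
The authors' deposited log2 fold change against the log2 ratio of IP to input reads (pseudocount 0.5), with nuclear peaks as grey squares shaded by number on a log scale, the 7 mitochondrial peaks in red, and a blue line at the median nuclear excess of 1.88. All 7 mitochondrial peaks lie above the line.

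Within ND5 the enrichment differed along the gene. Both peaks lie in the same annotated RNA, which encodes one of the proton-pumping subunits of complex I. Per 100 bases the 3' peak had 0.190 times the input reads and 0.447 times the IP reads of the 5' peak. Its IP to input ratio was therefore 2.35 times that of the 5' peak (Wald 95% interval 2.32 to 2.39, counting error only), and the log2 fold change in the authors' deposited table was higher by 1.04. A difference between libraries, which such an interval does not hold, could not be measured.

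The strands differed in the same direction on both measures, but the minus strand is represented by a single peak. Summed per strand, the 6 plus-strand peaks had a ratio of 1.36 (exact 95% interval 1.36 to 1.37), from 549977 IP over 403292 input reads. The minus-strand peak had 0.610, which is 0.447 times as high (log2 difference -1.16, Wald 95% interval -1.17 to -1.15, counting error only). All 6 plus-strand peaks had a higher ratio than ND6, from 1.45 times (ND2; Wald 95% interval 1.43 to 1.46) to 4.54 times (ND5 3'; 4.49 to 4.59). The log2 fold change of ND6 in the authors' deposited table was also the lowest, by 0.46 under ND2 and by 2.04 under ND5 3'. ND6 alone held 42.2% of the mitochondrial input reads and 24.6% of the IP reads. Without it the ratio of the mitochondrial peaks rose from 1.05 to 1.36, which is still under the nuclear 2.76.

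ND6 lies opposite RNA of the other strand, which bears on how far its reads can be ascribed to the gene. The ND6 and ND5 3' peaks share 14 bases, where the ends of both genes overlap on opposite strands. The long plus-strand transcript runs on from ND5 through the stretch opposite ND6 to CYTB, and no listed plus-strand interval covered that stretch beyond the shared bases. The library kit named in the labels exists in forms with and without strand marking, and the sources do not state whether strand was used in counting. Among 143 nuclear pairs of opposite-strand peaks whose overlap was at least 80% of the longer peak, input reads of both strands differed by at least 2-fold in 93 (65.0%), with a median difference of 3.51-fold. In 19 of the pairs (13.3%) the counts were within 5% of each other. Most of these nuclear pairs thus had unequal counts. They were matched on the outer ends of intervals, which can span introns, so their counts do not show whether strand was used. ND6 has no such pair, as no plus-strand interval covered it beyond the shared bases. For the ND6 peak, reads from RNA of either strand cannot be told apart in these files.

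The mitochondrial genome also has copies in nuclear DNA, and the sources do not state how reads that match both were counted. The RefSeq table listed 1 nuclear pseudogene under a mitochondrial gene name, Gm10925 (synonym mt-Atp6, chromosome 1 at 24613971 to 24614651), and no peak overlapped it. The search was by gene name alone, so copies without such an entry were not looked for. ATP6 held no mitochondrial peak. How far this copy reaches beyond the annotated pseudogene was not looked at, and whether nuclear copies share reads with the listed mitochondrial peaks was not tested.

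Nuclear genes that make, cut, modify and degrade mitochondrial RNA often held peaks of their own. Of 47 such genes, 46 were in the RefSeq table and 36 had a peak (78.3%, against 43.5% of the 21883 nuclear protein-coding genes). Which genes the cells express was not known, and the share was not tested. By role a peak was found for 10 of 10 transcription genes, 3 of 4 genes of end processing, 6 of 9 of stability and translation, 4 of 6 of polyadenylation and decay, and 13 of 17 of RNA modification. Taking the highest log2 fold change of each gene in the authors' deposited table, the median was 3.79 in these genes and 3.52 in all protein-coding genes with a peak.

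The highest values were in Mterf1b and Mterf1a, near-identical genes for a factor that binds mitochondrial DNA and ends transcription, at 6.02 and 5.88 (log2) in the authors' deposited table. Each gene held 2 peaks, and those with these values had 29 input and 277 IP reads, and 99 input and 842 IP reads. The sources do not state how reads that match both genes were shared. Next in the authors' deposited table came Tfb1m (4.64), which dimethylates the small ribosomal RNA, Mettl15 (4.60), a methyltransferase of the same RNA, Mrm3 (4.48), a methyltransferase of the large ribosomal RNA, and Trmt10c (4.35), a subunit of the enzyme that cuts the 5' ends of transfer RNAs from the long transcripts. For Tfb1m the IP to input ratio was 5.18, from 1612 IP over 311 input reads (exact 95% interval 4.59 to 5.87). Only the peak of highest log2 fold change of each gene was looked at for fewer IP than input reads. These were found for Fastkd3, of a family of mitochondrial RNA-binding proteins. Its peak, 1 of 2 of the gene, had 2084 input and 1419 IP reads (ratio 0.681, exact 95% interval 0.636 to 0.729). The same was so for Rexo2, an exonuclease of short RNAs, with 871 and 722 (0.829, 0.750 to 0.916). These 2 ratios lie within the range of the mitochondrial peaks, and in the authors' deposited table their log2 fold changes were 1.14 and 1.76, under the 2.17 of ND6.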

How the data were processed

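The analysis used 1 list and 1 table of the same 21195 peaks, from a series of 10 libraries. Which of the libraries entered the peaks and counts is not stated. Tools named in the submitters' processing notes are STAR 2.5.2a, Trimmomatic 0.32 and bcl2fastq 2.17.1.14, and the builds GRCh38.p13 and GRCm38.p6. The sources used here give neither the peak caller nor the read counter. The deposited counts are whole numbers in 1 input and 1 IP column, named as read counts per the file headers; how libraries were combined, by sum or by rounded mean, is unknown, and the intervals assume sums. The deposited log2 fold change and the deposited p-values, raw and adjusted, were read as IP against input, and their test is unstated. Minus log2 of the adjusted p gave back the deposited score of all 21195 peaks (tolerance 1e-06).

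Ratios of reads were computed with Python 3.11.15, pandas 2.3.3 and scipy 1.17.1, with exact Clopper-Pearson 95% intervals and a pseudocount of 0.5 on the log2 scale. Peaks were named by position through RefSeq, as none of their identifiers was in its table; the coding strand of mitochondrial genes is textbook knowledge. A nuclear peak counted for a protein-coding gene on its strand if it covered 50% of the shorter of both. Percentiles are shares of nuclear peaks with a lower value. Named were all mitochondrial genes under a peak and, of the nuclear list, the 6 with the highest deposited log2 fold change. Also named was any with fewer IP than input reads in its peak of highest fold change. Members and lists were chosen with earlier results of these data known. Planned fits on libraries were not possible, and no mitochondrial sequence was used here.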

Additional observations from a re-analysis of the deposited data

How the results depend on the processing

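No paired analysis was possible because no column is named for a single library, and for the same reason no replicate could be left out. The summed mitochondrial ratio of IP to input reads of 1.05 was 1.29 as the median of single-peak ratios, 1.36 on the plus strand alone (also the value without ND6, the peak with the most input reads), 0.610 on the minus strand alone and 0.957 without ND1, the peak with the most IP reads. At least 10 input reads, or at least 10000 (chosen after seeing the data, as were the others so marked), left it within its interval. The percentile of the median log2 read ratio among nuclear peaks, 21.7, became 23.6 among nuclear peaks of at most 1000 bases, 25.7 among those with at least as many input reads as ND4, and 14.0 among peaks with at least 10000 input reads (so marked). With the authors' deposited log2 fold change it became 52.6, and the count of peaks under the nuclear median went from 6 to 3; which of both measures is nearer to the enrichment of the RNA was not tested. The log2 difference of minus to plus strand, -1.16, was -1.13 with medians over peaks, -0.99 with medians of the fold change in the authors' deposited table and -0.94 without the ND5 3' peak (the last 2 so marked), so its direction was the same in these 3. Counts of peaks on their gene's strand (7 under both other rules) and of nuclear genes with a peak (36; 29 to 37 under 3 alternatives) stayed within 1.5 times. Depth limits the ND4 and CYTB values most, with 85 and 176 input reads.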
